A study of Mus musculus with 8 samples.

Results

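Hopx, Pdpn, Ager, Cav1 and Cav2 are genes used to recognise alveolar type I cells, and they were chosen here by name through the annotation of the array's probe sets. Of the 5 genes, 4 had a probe set annotated to them and Cav2 had none. They were 4 of 8251 genes that the array names by 1 symbol, and 5 of its 12488 probe sets, because Cav1 had 2. RNA of whole murine lung was measured on 8 Affymetrix arrays, 2 in each of 4 groups, lettered a and b. In the RA-Dex group mice received retinoic acid on day 3 and dexamethasone on day 4. The Dex group received oil on day 3 and dexamethasone on day 4, and the RA group retinoic acid on day 3 and saline on day 4. Dil is not spelled out in the labels and is read here as oil on day 3 followed by saline on day 4, the combination left over. Every mouse thus received an agent or its carrier on both days. The sources used here do not give doses, strain or the time between the second treatment and collection. They also do not state whether a and b were separate animals, so each p-value covers the spread between arrays, which may be technical. Values are signals, the brightness of a probe set on a linear scale after the submitters' scaling. Levels are not compared between probe sets, except in choosing 1 probe set per gene and in sums over gene lists. In those sums bright probe sets weigh most.

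Alveolar type I cells are very thin, flat epithelial cells that cover most of the inner surface of the lung and, with the capillary endothelium beneath them, form the barrier across which gas is exchanged. They lie beside the cuboidal type II cells, which secrete surfactant and can give rise to type I cells. Dexamethasone is a synthetic glucocorticoid that acts through the glucocorticoid receptor, a DNA-binding transcription factor. Retinoic acid, which is made from vitamin A, acts through retinoic acid receptors. Glucocorticoids given to newborn rodents are known to inhibit the subdivision of air sacs into alveoli, and the series is titled for the inhibition of septation and the protection from it. In whole-lung RNA, fewer cells of a type and less RNA of that gene per cell cannot be told apart.

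The promoters of Hopx and Pdpn, which passed the test for dexamethasone, and of Cav1, which did not pass, are shown because both treatments act through receptors that bind DNA. The 250 bases before each annotated start were taken from RefSeq (assembly GRCm38.p6) and written from 5′ to 3′ in the direction of the gene. Each was searched on both strands for AGAACA, which the glucocorticoid receptor binds, for the receptor's full palindrome, which is AGAACA followed after 3 free bases by its reverse complement, and for AGGTCA, the unit that retinoic acid receptors bind in repeats. Capitals mark a match to AGGTCA in Pdpn and to AGAACA in Cav1.
Hopx, chr5:77115124-77115373, minus strand: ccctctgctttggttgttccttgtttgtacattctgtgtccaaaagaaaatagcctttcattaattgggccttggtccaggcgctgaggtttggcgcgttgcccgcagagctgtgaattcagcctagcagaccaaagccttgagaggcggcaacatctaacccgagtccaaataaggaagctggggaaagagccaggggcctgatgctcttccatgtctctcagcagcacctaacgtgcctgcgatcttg
Hopx, chr5:77095268-77095517, minus strand: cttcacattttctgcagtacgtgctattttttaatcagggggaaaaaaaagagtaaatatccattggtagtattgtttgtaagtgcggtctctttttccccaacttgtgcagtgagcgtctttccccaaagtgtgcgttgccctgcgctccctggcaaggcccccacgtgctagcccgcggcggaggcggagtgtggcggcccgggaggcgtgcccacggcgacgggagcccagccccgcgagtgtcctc
Pdpn, chr4:143299565-143299814, minus strand: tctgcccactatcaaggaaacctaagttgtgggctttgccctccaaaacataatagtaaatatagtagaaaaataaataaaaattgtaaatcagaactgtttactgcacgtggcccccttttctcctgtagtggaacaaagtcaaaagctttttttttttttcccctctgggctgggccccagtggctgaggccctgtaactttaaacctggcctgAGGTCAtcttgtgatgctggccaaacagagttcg
Cav1, chr6:17306085-17306334, plus strand: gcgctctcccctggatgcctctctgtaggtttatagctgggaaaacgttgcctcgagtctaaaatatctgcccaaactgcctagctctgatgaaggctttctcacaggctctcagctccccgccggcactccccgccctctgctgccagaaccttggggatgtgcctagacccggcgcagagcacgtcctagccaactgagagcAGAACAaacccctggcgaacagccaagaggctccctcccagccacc
Cav1, chr6:17307390-17307639, plus strand: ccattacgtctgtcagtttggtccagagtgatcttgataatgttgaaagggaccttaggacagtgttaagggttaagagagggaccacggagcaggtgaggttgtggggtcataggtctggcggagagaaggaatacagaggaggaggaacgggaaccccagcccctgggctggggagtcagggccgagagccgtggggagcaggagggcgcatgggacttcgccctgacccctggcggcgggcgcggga
Across the 7 windows annotated to the 5 genes, AGGTCA was found in 1, that of Pdpn, where the match began 34 bases before the start. AGAACA was also found in 1 of the 7, the first Cav1 window, 46 bases before the start. The palindrome was in 0 of the 7 windows. Among all 32851 windows of this length, 14% held AGGTCA, 16.1% held AGAACA and 0.00913% held the palindrome. Both Hopx windows, the Ager window on chromosome 17, the second Cav1 window and the Cav2 window on chromosome 6 contained none of these letters, which says nothing about binding elsewhere. Cav2 and Cav1 are neighbours on chromosome 6 with 0 annotated genes between them.

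Hopx and Pdpn were higher on the 4 arrays of dexamethasone-treated lungs than on the 4 arrays without dexamethasone. Ager did not separate the arrays with dexamethasone from those without it, and Cav1 was higher on each dexamethasone array without passing the test. The share of all tested probe sets that separated the arrays without overlap was not counted, for this or any other comparison. Such a separation alone is therefore only a description. Averaged over the day 3 treatment, the dexamethasone effect passed the test for 2 of the 4 tested genes, both upward. Of all 7309 tested probe sets, 7.83% passed in either direction. The genes were chosen with earlier results of these data known. Their geometric mean signals were 1646 to 25670, and the share was not matched for signal. This contrast and the like ones below are therefore descriptions and not tests of enrichment. The median log2 fold change of the 4 genes was 0.47, against -0.03 over all tested probe sets. The share of 7.83% also applies to the averaged dexamethasone counts of the gene lists below. The test was limma's moderated test with adjustment by Benjamini-Hochberg over all tested probe sets, and genes were called at an adjusted p under 0.05. All 4 genes had a probe set above the filter on low signals, which took no account of group, and the second Cav1 probe set was below it.

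**Figure D1:**
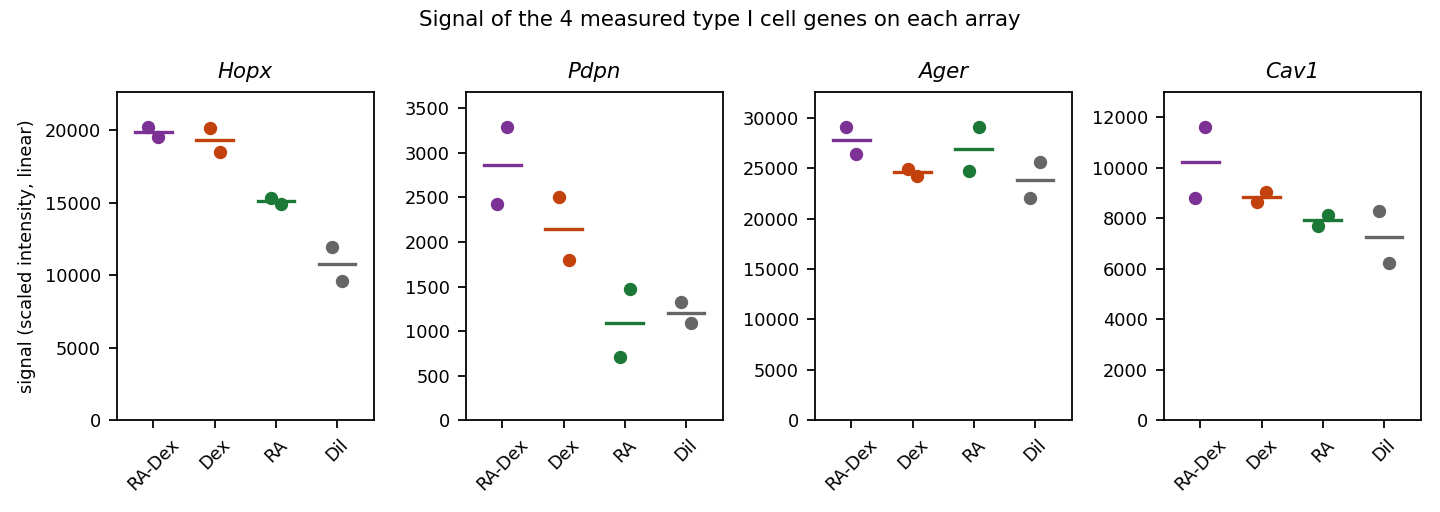
Signal of each measured gene on each array (vertical axis, linear scale from 0) by group (horizontal axis). Points are single arrays and horizontal lines are means of 2 arrays. Hopx and Pdpn lie higher on all 4 RA-Dex and Dex arrays than on the RA and Dil arrays. For Ager the arrays with and without dexamethasone overlap.

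Hopx encodes a small homeodomain protein that does not bind DNA itself and acts through partner transcription factors; besides type I cells it is expressed in the heart. Its signals were 20239 and 19571 on the RA-Dex arrays, 20177 and 18501 on the Dex arrays, 15352 and 14940 on the RA arrays, and 11957 and 9595 on the Dil arrays. No array of a dexamethasone group overlapped with an array outside these groups, and the RA arrays lay above both Dil arrays. The mean log2 signal was 14.28 ± 0.03 in RA-Dex, 14.24 ± 0.09 in Dex, 13.89 ± 0.03 in RA and 13.39 ± 0.23 in Dil (SD, n = 2 each). The averaged dexamethasone effect was a log2 fold change of 0.62 ± 0.094 (SE), which is 1.54-fold (95% interval 1.33 to 1.78), with an adjusted p of 0.00207.

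Taken without retinoic acid, Hopx was 1.80-fold higher in Dex than in Dil lungs (log2 fold change 0.85 ± 0.133, adjusted p = 0.00545). That call ended in the unfiltered fit (adjusted p = 0.0857), in the fit leaving out Dex replicate a (0.0754) and in that with no intensity trend (0.0717). Hopx was also the member called between RA-Dex and Dil, at 1.86-fold (0.89 ± 0.133, adjusted p = 0.00325), a call that ended unfiltered (0.0663) and with no intensity trend (0.0523). In lungs that had received retinoic acid first, RA-Dex against RA, the difference was 0.39 ± 0.133 with a 95% interval of 0.10 to 0.69 and an adjusted p of 0.164, and it was not called. The change of the dexamethasone effect with retinoic acid, tested as the interaction, was -0.46 ± 0.188 (95% interval -0.87 to -0.04) and did not pass (adjusted p = 0.859). RA against Dil gave 0.50 ± 0.133, 1.41-fold, with both RA arrays above both Dil arrays, an unadjusted p of 0.00327 and an adjusted p of 0.323. The top pair in the order of levels, RA-Dex and Dex, differed by 0.04 (95% interval -0.25 to 0.34), which is within the spread of the arrays.

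Hopx is also a heart gene, and heart muscle and other tissues can be carried into a lung sample. The 7 tested heart muscle markers had 0 calls for the averaged dexamethasone effect, where 7.83% of all tested probe sets passed. Their median log2 fold change was -0.25. Their summed signal ran from 20884 to 21271 on the RA-Dex arrays, 16554 to 17143 on the Dex arrays, 20224 to 20896 on the RA arrays and 24875 to 25876 on the Dil arrays. The sum was lower on the Dex than on the Dil arrays, and it was about as high on the RA-Dex as on the RA arrays. Of the tested squamous epithelium and skeletal muscle markers, 0 of 5 and 0 of 3 were called for the averaged effect. List sums take in every gene with a probe set, also below the filter, here 11 squamous and 8 skeletal muscle genes. Both lists had their highest sums on the Dil arrays, at 5687 to 9599 and 3110 to 4200. On the other 6 arrays these sums were at most 4821 and 2044. In the comparisons in which Hopx was called, 1 of 7 heart markers fell in Dex against Dil, the cardiac actin Actc1 (-0.62 ± 0.137, adjusted p = 0.0345), a call kept in 7 of 16 alternatives. In RA-Dex against Dil 1 of 5 squamous markers fell, the keratin Krt4 (-1.56 ± 0.332, adjusted p = 0.0269), a call kept in 11 of 16. The part of heart muscle, squamous epithelium and skeletal muscle RNA in the Hopx differences was not tested.

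Pdpn encodes podoplanin, a mucin-like membrane glycoprotein of the type I cell surface that is also made by lymphatic endothelium and mesothelium. Its signals were 2431 and 3290 on the RA-Dex arrays, 2501 and 1794 on the Dex arrays, 704 and 1477 on the RA arrays, and 1325 and 1088 on the Dil arrays. The groups with dexamethasone did not overlap with the groups without it, and the RA arrays lay on either side of both Dil arrays. The mean signal was 2860 ± 607 in RA-Dex, 2147 ± 500.2 in Dex, 1091 ± 547 in RA and 1206 ± 168 in Dil (SD, n = 2 each), so the RA arrays differed from each other by more than the RA and Dil means did. The averaged dexamethasone effect was 1.15 ± 0.224, or 2.21-fold, with an adjusted p of 0.0097 and a 95% interval of 0.65 to 1.64 on the log2 scale. The effect no longer passed when RA-Dex replicate b was left out (adjusted p = 0.058) or when low probe sets were not filtered (0.167).

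Between RA-Dex and RA, Pdpn was 2.77-fold higher (log2 fold change 1.47 ± 0.317, adjusted p = 0.0301). It did not pass unfiltered (adjusted p = 0.263) or without the trend of variance with intensity in the model (0.107). Leaving out RA-Dex replicate a (0.0923), RA-Dex replicate b (0.243) or RA replicate a (0.12) also ended the call. Without RA replicate a the log2 fold change was 0.94. Dex against Dil gave 0.82 ± 0.317 (95% interval 0.12 to 1.52, adjusted p = 0.243). RA-Dex against Dil gave 1.24 ± 0.317 (0.54 to 1.94, adjusted p = 0.0594), and it passed without RA replicate a (0.0101), without RA replicate b (0.0109) and with the stricter filter (0.0414). The interaction was 0.65 ± 0.448 (adjusted p = 0.898), so a difference between the dexamethasone effects with and without retinoic acid was not shown.

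RA replicate a gave the lowest of the 8 signals for Pdpn. Over all tested probe sets this array was the lowest in 14.4%, while the other 7 arrays were the lowest in 10.1% to 16.4%. It was the highest in 17.6%, more often than any of the other 7, which were the highest in 7.61% to 17.3%.

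Lyve1, a hyaluronan receptor of lymphatic endothelium and of some macrophages, also rose with dexamethasone. Its signals were 2372 and 2811 on the RA-Dex arrays, 2299 and 2799 on the Dex arrays, 1338 and 1608 on the RA arrays, and 1485 and 1324 on the Dil arrays. The groups with dexamethasone lay above the others, with an averaged effect of 0.84 ± 0.129, or 1.78-fold (adjusted p = 0.00239). Of the 4 tested markers of lymphatic endothelium and mesothelium, Lyve1 was the 1 that passed, against 7.83% of all tested probe sets. Among the others, Upk3b, a mesothelial uroplakin, gave -0.30 ± 0.142 (adjusted p = 0.254), Flt4 0.18 (0.65) and Msln 0.01 (0.971). In each of these, arrays with and without dexamethasone overlapped. Prox1, the transcription factor that specifies lymphatic endothelium, had signals of 11 to 51, all under the floor of 85.3. The summed signal of the 6 listed genes with a probe set was 6030 to 6212 in RA-Dex and 5817 to 6560 in Dex. It was 5258 to 5486 in RA and 4943 to 5016 in Dil. Lyve1 is part of this sum and was its only called gene. The part of these cells in the Pdpn difference was not tested.

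Ager encodes the receptor for advanced glycation end products, a membrane receptor that in the lung is found mainly on type I cells. Its signals were 29087 and 26417 on the RA-Dex arrays, 24940 and 24261 on the Dex arrays, 24699 and 29067 on the RA arrays, and 22068 and 25628 on the Dil arrays. All 4 groups overlapped with at least 1 other, though both RA-Dex arrays lay above both Dex and both Dil arrays. RA-Dex against Dil gave 0.22 ± 0.128 and did not pass (adjusted p = 0.447). The averaged dexamethasone effect was 0.05 ± 0.0907 with a 95% interval of -0.15 to 0.25 (adjusted p = 0.822). That interval lies below the Hopx estimate of 0.62, though the difference between the genes was not tested. The SD of Ager over the 8 arrays was 0.13 on the log2 scale, at the 7.05th percentile of tested probe sets, against 0.72 and the 95.6th percentile for Pdpn. For Hopx the SD was 0.39, at the 77.5th percentile, and for Cav1 it was 0.25, at the 43.5th.

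Cav1 and Cav2 encode caveolins, which coat the flask-shaped membrane pits called caveolae and are abundant in endothelium as well as in type I cells. The tested Cav1 probe set had signals of 8792 and 11606 on the RA-Dex arrays, 8636 and 9047 on the Dex arrays, 7704 and 8127 on the RA arrays, and 8298 and 6238 on the Dil arrays. The 4 arrays with dexamethasone lay above the 4 without it, by a narrow margin between Dex replicate a and Dil replicate a. The averaged effect was 0.33 ± 0.122, or 1.25-fold, with a 95% interval of 0.06 to 0.60, and it did not pass the test (adjusted p = 0.149). RA-Dex against Dil gave 0.49 ± 0.173 (1.40-fold, adjusted p = 0.171), Dex against Dil 0.30 ± 0.173 (0.488) and RA-Dex against RA 0.35 ± 0.173 (0.364). The second Cav1 probe set had signals of 185 and 207 in RA-Dex, 130 and 263 in Dex, 126 and 211 in RA, and 280 and 101 in Dil. Its groups overlapped throughout, and with a mean log2 signal below the filter it was not tested.

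Because caveolin 1 is also an endothelial protein, the endothelial markers are given beside it. Of 11 tested, 1 passed for the averaged dexamethasone effect, against 7.83% of all tested probe sets. It was the VEGF receptor Kdr, which fell by 0.86 ± 0.122 on the log2 scale (adjusted p = 0.00148). Ramp2, a subunit of the adrenomedullin receptor, gave 0.23 (adjusted p = 0.15), the tight junction protein Cldn5 -0.33 (0.0653) and the angiopoietin receptor Tek -0.28 (0.249). The summed signal of the list was 57722 to 68822 in RA-Dex, 54566 to 58450 in Dex, 56147 to 65802 in RA and 63336 to 67748 in Dil. The sums overlapped between the groups with and without dexamethasone, and their part in the Cav1 values was not tested.

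**Figure D2:**
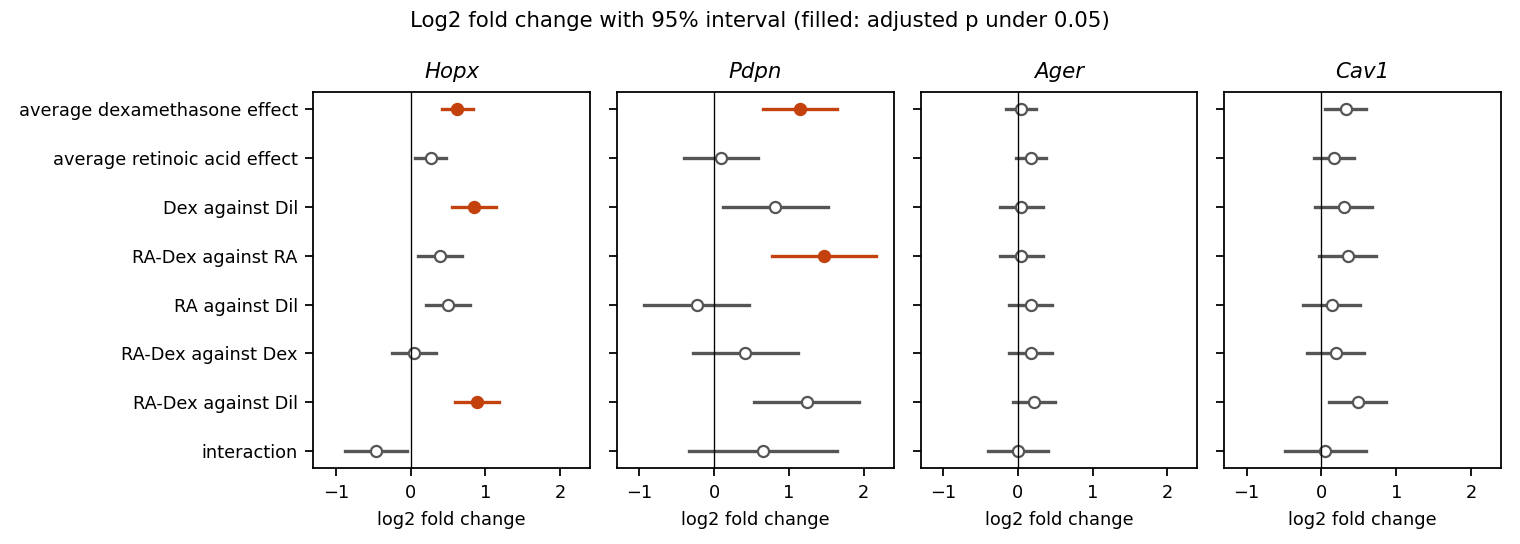
Log2 fold change (horizontal axis) of Hopx, Pdpn, Ager and Cav1 in each of the 8 comparisons, with 95% intervals from the limma fit. Filled points passed at an adjusted p under 0.05. These are Hopx and Pdpn for the averaged dexamethasone effect, Hopx for Dex and for RA-Dex against Dil, and Pdpn for RA-Dex against RA.

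The single comparisons share arrays: Dex and RA-Dex against Dil use the same Dil arrays, and each averaged effect uses all 8. In Dex against Dil, 1 of the 4 genes passed, Hopx, where 3.23% of all tested probe sets did. In RA-Dex against RA it was also 1 of 4, Pdpn, with 3.5% of all probe sets, and in RA-Dex against Dil 1 of 4, Hopx, with 4.01%. The median log2 fold changes of the 4 genes were 0.56, 0.37 and 0.69 in these 3 comparisons, against -0.02, -0.05 and -0.05 over all tested probe sets.

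In the comparisons that differ in retinoic acid alone, none of these genes was called. Averaged over the day 4 treatment, 0 of 4 passed in limma, with 0.15% of all tested probe sets passing and 460 probe sets at an unadjusted p under 0.05. The values were 0.27 ± 0.0938 for Hopx (adjusted p = 0.611), 0.09 ± 0.224 for Pdpn (0.978), 0.17 ± 0.0907 for Ager (0.806) and 0.17 ± 0.122 for Cav1 (0.925). In RA against Dil, 0 of 4 passed where 0.0274% of all probe sets did and 584 had an unadjusted p under 0.05. Besides Hopx, given above, Pdpn was at -0.24 ± 0.317, Ager at 0.17 ± 0.128 and Cav1 at 0.14 ± 0.173.

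On top of dexamethasone, in RA-Dex against Dex, 0 of 4 passed where 0.0958% of all probe sets did and 302 had an unadjusted p under 0.05. Pdpn was at 0.42 ± 0.317, Ager at 0.17 ± 0.128 with both RA-Dex arrays above both Dex arrays, and Cav1 at 0.19 ± 0.173. For the interaction 0 of 4 passed, against 0.0137% of all probe sets, with 409 at an unadjusted p under 0.05. With 2 arrays a group these intervals were wide, and the absence of a call does not show that retinoic acid left the genes unaltered.

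Dexamethasone exposure showed in known glucocorticoid target genes. Fkbp5, a chaperone partner of the receptor, had an averaged effect of 2.39 (adjusted p = 8.84e-07), the transcription factor Zbtb16 3.97 (1.43e-07) and the clock gene Per1 1.67 (3.72e-05), so 3 of 3 tested rose. The fourth on that list, Tsc22d3, was below the filter and was not tested. Its signals were 96 and 81 in RA-Dex, 218 and 327 in Dex, 101 and 168 in RA, and 68 and 325 in Dil. These low signals were lower on the RA-Dex than on the RA arrays and overlapped between Dex and Dil. For retinoic acid, the 1 target that could be tested was Dhrs3, a retinaldehyde reductase. Its averaged retinoic acid effect was 0.34 ± 0.125 and did not pass (adjusted p = 0.661). All 4 arrays of retinoic acid lungs lay above the others, which is only a description. Retinoic acid exposure was therefore not shown by Dhrs3. The other 6 genes of that list of 7 were below the filter or had no probe set.

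Of 17 other genes associated with type I cells, 11 had a probe set and 9 were tested. For the averaged dexamethasone effect 1 of the 9 rose and 0 fell, where 7.83% of all tested probe sets passed in either direction. The median log2 fold change was 0.10, against -0.03 over all tested probe sets. The gene that rose was Lmo7, a LIM domain protein of cell junctions. Its signals were 12713 and 14455 on the RA-Dex arrays, 11447 and 12639 on the Dex arrays, 9529 and 8379 on the RA arrays, and 7533 and 7112 on the Dil arrays. The groups ran in the same order as for Hopx, without overlap between those with and without dexamethasone, and the effect was 0.66 ± 0.0944, or 1.58-fold (adjusted p = 0.00153). Lmo7 was also the 1 gene of the list that passed in Dex against Dil, in RA-Dex against RA and in RA-Dex against Dil.

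The simple epithelial keratin Krt7 had signals of 6964 and 7222 in RA-Dex, 6947 and 5937 in Dex, 5043 and 5652 in RA, and 5569 and 5938 in Dil. Its groups met at Dex replicate b and Dil replicate b, and its effect of 0.28 ± 0.0985 did not pass (adjusted p = 0.117). The growth factor Vegfa was at -0.22 (adjusted p = 0.485) and the cytochrome P450 Cyp2b10 at 0.20 (0.491). For the averaged retinoic acid effect 0 of the 9 passed. Igfbp2, which binds insulin-like growth factors and is secreted by type I cells, was at -0.55 ± 0.133 (adjusted p = 0.286), with all 4 arrays of retinoic acid lungs below the others.

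**Figure D3:**
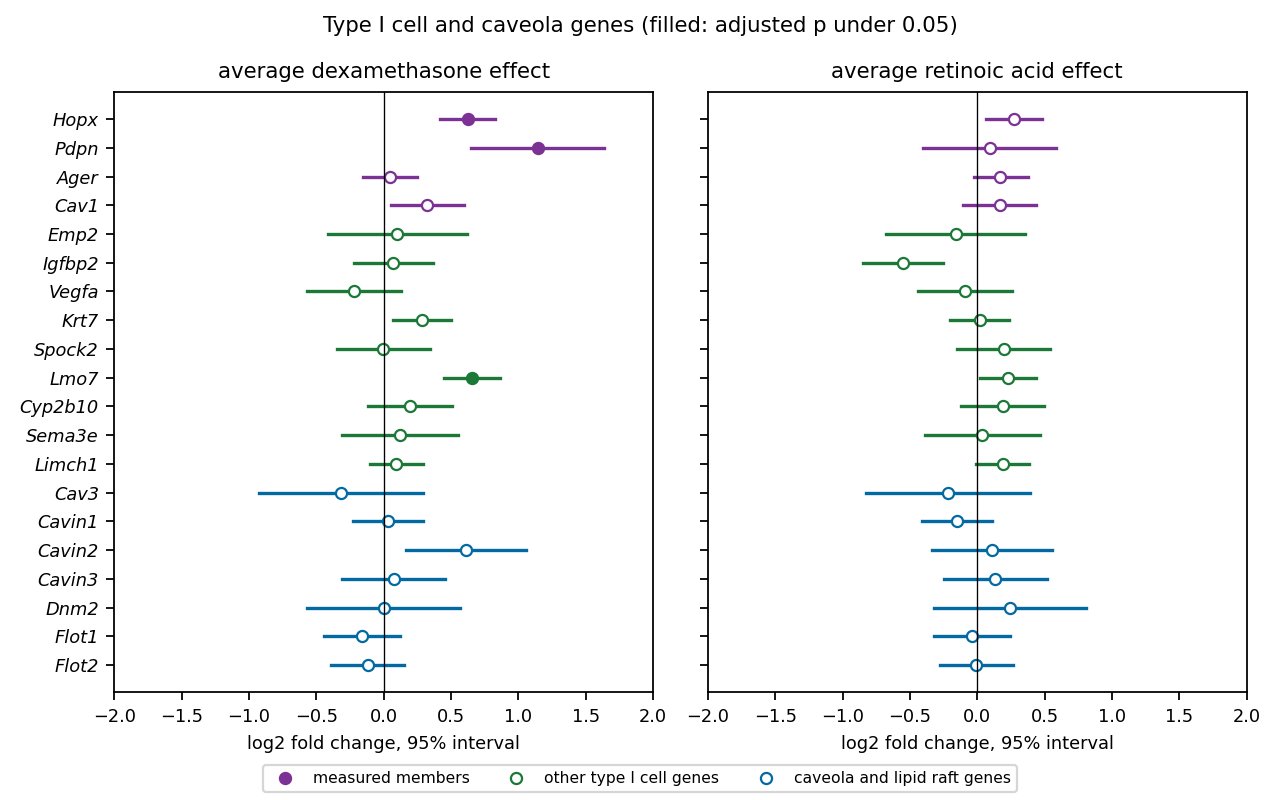
Log2 fold change (horizontal axis) with 95% interval for the 4 measured genes, 9 other type I cell genes and 7 caveola and lipid raft genes, for the averaged dexamethasone effect (left) and the averaged retinoic acid effect (right). Filled points passed at an adjusted p under 0.05, which Hopx, Pdpn and Lmo7 did for dexamethasone and none of the 20 for retinoic acid.

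Caveolae also need cavins, which form the outer coat, and flotillins mark related lipid rafts. Of 9 such genes 7 were tested. For the averaged dexamethasone effect 0 passed, against 7.83% of all tested probe sets, with a median of 0.00. Cavin2, which has a coat role in endothelium, had signals of 5105 and 8423 in RA-Dex, 7307 and 5076 in Dex, 4498 and 4115 in RA, and 5165 and 3065 in Dil. Dil replicate a lay within the range of the dexamethasone arrays. The effect was 0.61 ± 0.201 (adjusted p = 0.0975), and it passed without Dil replicate a (0.033). The muscle caveolin Cav3 was at -0.32 (adjusted p = 0.581), Flot1 at -0.16 (0.539) and Flot2 at -0.12 (0.657).

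Of 16 genes whose products bind these proteins or work with them, 8 were tested. For the averaged dexamethasone effect 0 passed in limma, against 7.83% of all tested probe sets (median -0.22). S100a4, an S100 protein of the family that binds the receptor encoded by Ager, was at -0.81 ± 0.235 (adjusted p = 0.0617). Its signals were 178 and 295 in RA-Dex, 232 and 237 in Dex, 407 and 342 in RA, and 435 and 454 in Dil, so the dexamethasone arrays lay below the others. S100a9, another S100 protein and abundant in neutrophils, was at -0.65 ± 0.215 (adjusted p = 0.0985). Rdx, or radixin, one of the proteins that can link podoplanin to the actin cytoskeleton, was at 0.56 ± 0.174 (0.0803). Gata6, a transcription factor of lung and heart, was at -0.39 ± 0.143 (0.137), while another tested probe set of this gene was at 0.13 (0.848).

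Markers of neighbouring cells moved in both directions, and the type II cell list did not move as one. Of 5 tested type II genes, Lpcat1, an enzyme of surfactant phospholipid synthesis, fell by 0.70 ± 0.111 (adjusted p = 0.00283). The surfactant protein Sftpb was at 0.23 (0.181), the phosphate transporter Slc34a2 at 0.10 (0.648) and the protease Napsa at 0.11 (0.569). The summed type II signal, over 6 genes with a probe set, was 143071 to 149806 in RA-Dex and 130187 to 132030 in Dex. It was 134815 to 138898 in RA and 119038 to 149639 in Dil, with overlap between groups. The surfactant protein Sftpc, at -0.02 (0.94), alone gave 61592 and 84336 of the Dil sums. The width of the Dil range therefore rests largely on Sftpc.

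Among 8 markers of epithelium in general, Krt19, a keratin of simple epithelia, rose by 0.55 ± 0.105 (adjusted p = 0.00868), a call lost without Dex replicate a (0.0559). The mucin Muc1 fell by 0.66 ± 0.0959 (0.00159). The claudins Cldn7 and Cldn4 were at -0.44 (0.062) and -0.39 (0.399). The summed signal of this list was 18814 to 19828 in RA-Dex, 18307 to 19031 in Dex, 22781 to 23506 in RA and 19349 to 20367 in Dil. Muc1 alone gave 11550 and 11584 of the RA sums. Of 4 smooth muscle markers, Tagln, an actin-binding protein, fell by 0.48 ± 0.111 (adjusted p = 0.0253), and this held in 8 of 16 alternatives (highest adjusted p 0.126). The part of these lists in the type I cell values was not tested.

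The genes whose pattern over the 8 arrays was most like that of Hopx were Zfp131, a zinc finger protein, Pkn2, a protein kinase, and Hsph1, a heat shock protein. Likeness was the root mean square difference between log2 signals, each centred on its own mean, over the 5618 tested genes. It was 0.12 for Zfp131, 0.13 for Pkn2 and 0.13 for Hsph1. Zfp131 had signals of 804 and 863 in RA-Dex, 774 and 923 in Dex, 649 and 572 in RA, and 536 and 417 in Dil, the same order of groups as Hopx except that Dex averaged above RA-Dex.

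For Pdpn the closest were Perp, a membrane protein of desmosomes, at 0.20, Ephx1, an epoxide hydrolase, at 0.20, and the clock gene Per2 at 0.22. Perp had signals of 1069 and 1525 in RA-Dex, 1382 and 964 in Dex, 391 and 845 in RA, and 666 and 408 in Dil. Ephx1 had 1267 and 1491 in RA-Dex, 1204 and 816 in Dex, 421 and 1028 in RA, and 707 and 625 in Dil. In both, RA replicate a was the lowest array, as it was for Pdpn, and the likeness therefore rests in part on that array. Ager and Cav1 varied less than the median tested probe set, whose SD was 0.27, and no such genes were sought for them.

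**Figure D4:**
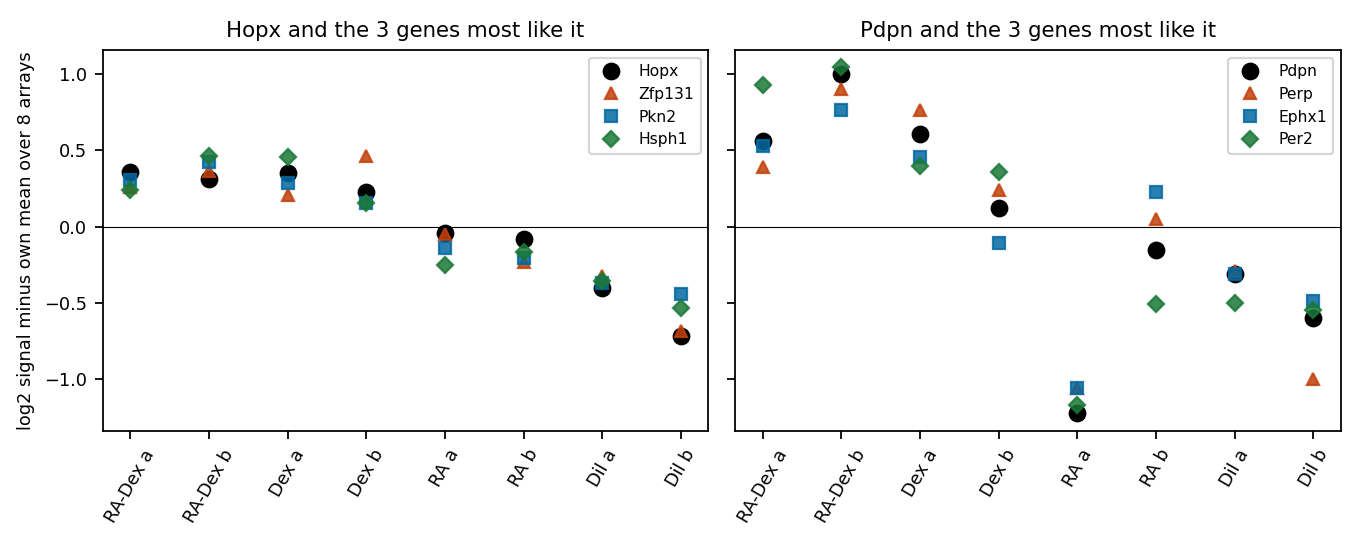
Log2 signal centred on each gene's own mean (vertical axis) on the 8 arrays (horizontal axis) for Hopx and for Pdpn, each with the 3 tested genes of smallest root mean square difference from it. The points of each panel lie close together because the genes were picked for that, and RA replicate a is the lowest array of Pdpn, Perp, Ephx1 and Per2.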

How the data were processed

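The deposited values are intensity signals, 1 per probe set and array, which the authors had scaled, since all 8 arrays had the same mean, 800.4, once 2% of values were trimmed at either end. The sources used here name no scaling software and give no detection calls. Median signals were 316 to 342, and 23.4% to 25.7% of values per array were at or under the floor. Only 2 arrays per group limit the precision.

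Signals under 85.3, the pooled 25th percentile, were set to that floor and taken as log2, with no further normalization. Of 12488 probe sets, 66 controls were dropped, and 7309 with a mean above the pooled 40th percentile (200.8) were tested. Symbols came from the array annotation, updated by Entrez ID: 10833 probe sets had 1 symbol (10817 matched), 396 several and 1193 none. A gene stood for its probe set of highest mean signal.

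All 8 arrays were fitted with limma 3.58.1 in R 4.3.3 (1 mean per group, eBayes with an intensity trend, two-sided; 4 residual and 6.69 prior degrees of freedom), with Benjamini-Hochberg adjustment over the 7309 probe sets of each of 8 comparisons. The interaction is RA-Dex minus RA, less Dex minus Dil. The procedure was tested on simulated data.

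The genes and lists were chosen with earlier results of these data known. Named were all members, up to 4 genes of a list by smallest p, the label check genes, and 3 genes of most similar pattern for members varying more than the median probe set. Alternatives were normalization by quantiles or cyclic loess, no filter, a filter at the 60th percentile (508.5), a pseudocount, no intensity trend, a robust variance, the mean over probe sets, the replicate letter as a block, each array left out, and, added after seeing the data, both Dil arrays left out.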

Additional observations from a re-analysis of the deposited data

How the results depend on the processing

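The comparisons rest on 2 arrays a group, and depth behind a signal is unknown. Of 528 recomputed log2 fold changes of the 4 genes, 497 kept their direction and their side of the threshold, 12 lost a call, 3 gained one and 16 turned their sign, none of these 16 being called in either fit. Hopx kept its averaged dexamethasone call in 16 of 16 alternatives (0.54 to 0.70) and Pdpn in 14 of 16 (0.88 to 1.41). Of 542 recomputed values of other named genes, 510 kept direction and side, 23 lost a call (of Actc1, Krt4, Krt19 or Tagln), 9 gained one and 0 turned; the gains were of Cavin2, S100a4, S100a9, Rdx, Sftpb, Cldn7 and Cldn5. With no filter, the probe sets called were 349 for the averaged dexamethasone effect (572 as reported), 23 for averaged retinoic acid (11), 96 for Dex against Dil (236), 143 for RA-Dex against RA (256), 11 for RA against Dil (2), 16 for RA-Dex against Dex (7), 147 for RA-Dex against Dil (293) and 22 for the interaction (1), and the members called were 1 for averaged dexamethasone and 0 for Dex against Dil, RA-Dex against RA and RA-Dex against Dil. With the stricter filter 1 probe set was called in RA against Dil and 2 members in RA-Dex against Dil. With no intensity trend the probe sets called were 2 for averaged retinoic acid, 112 for Dex against Dil, 126 for RA-Dex against RA, 0 for RA against Dil, 3 for RA-Dex against Dex and 165 for RA-Dex against Dil, with 0 members in Dex against Dil, RA-Dex against RA and RA-Dex against Dil. The deviations of a and b correlated at -0.22 to 0.14 between groups, which shows little shared shift between the letters but not what they mark. Under the replicate block 454 probe sets were called for averaged dexamethasone, 5 for averaged retinoic acid and 195 for RA-Dex against Dil, and no member's call changed. Leaving out 1 array at a time, the probe sets called were 307 to 540 for averaged dexamethasone, 2 to 18 for averaged retinoic acid, 80 to 271 for Dex against Dil, 81 to 258 for RA-Dex against RA, 2 to 16 for RA against Dil, 2 to 7 for RA-Dex against Dex, 93 to 335 for RA-Dex against Dil and 1 to 2 for the interaction. The members called were 1 to 2 for averaged dexamethasone, 0 to 1 for Dex against Dil, 0 to 1 for RA-Dex against RA and 1 to 2 for RA-Dex against Dil, and the caveola list had 0 to 1. Sign changes with 1 array left out gave ranges of -0.01 to 0.11 for Ager under averaged dexamethasone, -0.059 to 0.157 for Ager in Dex against Dil, -0.068 to 0.166 for Ager in RA-Dex against RA, -0.18 to 0.36 for Pdpn under averaged retinoic acid, -0.77 to 0.30 for Pdpn in RA against Dil, -0.069 to 0.343 for Cav1 in RA against Dil, -0.008 to 0.393 for Cav1 in RA-Dex against Dex, -0.15 to 0.26 for the Cav1 interaction and -0.02 to 0.11 for Hopx in RA-Dex against Dex. The last was also -0.043 with quantile and -0.007 with cyclic loess normalization. Without both Dil arrays, chosen after seeing the data, Pdpn kept its call in RA-Dex against RA (adjusted p = 0.034). Where no value shows it, the cause of these changes was not tested.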
